A study of Mus musculus with 12 samples.

Results

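The 10 genes Ccl5, Cxcl10, Cxcl1, Ccl2, Ccl7, Csf1, Il24, Il18, Il6 and Lif encode secreted chemokines and cytokines, and their transcripts were followed in MODE-K cells, a mouse line labelled as small intestinal epithelium, after gamma irradiation. They were taken by symbol from the 22036 annotated known genes of the deposited table, which holds 33625 genes in all, and each member was found. There were 12 RNA sequencing libraries in 4 groups of 3: 12Gy_48h (12 Gy, collected at 48 h), 12Gy_24h (12 Gy, collected at 24 h), 4Gy_48h (4 Gy, collected at 48 h) and control (0 Gy, collected at 0 h). All groups are wild-type cells of the same line, irradiated with cobalt-60 gamma rays where a dose was given and grown in the same serum-containing medium. The control was collected at 0 h, so in each comparison with it the dose and the hours in culture cannot be told apart, and 12Gy_48h against 4Gy_48h is the comparison at matched time. There was no unirradiated group at 24 h or 48 h. In 12Gy_48h against 12Gy_24h, the hours since irradiation and the hours in culture therefore cannot be told apart either. The labels give parallel experimental groups and no separate passages, so the p-values speak of how far these libraries spread, and that spread may be technical.

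Chemokines are small secreted proteins that draw leukocytes along a gradient by way of G protein-coupled receptors on those cells. In the gut epithelium Ccl5 and Cxcl10 draw T cells and other lymphocytes, Cxcl1 draws neutrophils, and Ccl2 and Ccl7 draw monocytes. Their promoters are classical targets of NF-kB, and Cxcl10 is also a classical target of interferon signalling through the interferon-stimulated response element (ISRE). Csf1 is the growth factor of macrophages, Il6 and Lif signal through the shared receptor subunit Il6st (gp130), Il24 belongs to the IL-10 family, and Il18 is an IL-1 family cytokine that is made as a precursor and cut by caspase-1.

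The promoters of Cxcl10 and Cxcl1 are shown because both genes carry kappaB motifs, yet they took different courses across the 12 libraries. Each sequence runs from 250 bases before to 50 bases after the transcription start in RefSeq annotation of GRCm38.p6, and is printed 5′ to 3′ on the strand of the gene. Capitals mark kappaB motifs and, in Cxcl10, the ISRE core. The Cxcl10 sequence is chr5:92348840-92349139 on the minus strand, and the Cxcl1 sequence is chr5:90890995-90891294 on the plus strand.
Cxcl10: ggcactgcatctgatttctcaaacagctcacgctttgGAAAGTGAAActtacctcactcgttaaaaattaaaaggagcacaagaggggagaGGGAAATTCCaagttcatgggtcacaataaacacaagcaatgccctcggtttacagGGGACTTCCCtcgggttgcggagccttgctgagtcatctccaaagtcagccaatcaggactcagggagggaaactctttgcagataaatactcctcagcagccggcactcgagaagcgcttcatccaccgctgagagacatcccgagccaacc
Cxcl1: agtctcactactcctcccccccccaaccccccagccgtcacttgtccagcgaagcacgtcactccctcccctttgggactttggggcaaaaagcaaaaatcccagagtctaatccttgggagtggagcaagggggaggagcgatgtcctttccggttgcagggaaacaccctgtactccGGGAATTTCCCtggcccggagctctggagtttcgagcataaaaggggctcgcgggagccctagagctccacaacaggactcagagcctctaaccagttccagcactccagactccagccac

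Of the 10 members, 6 had a promoter entry (Cxcl10, Cxcl1, Csf1, Il18, Il6 and Lif), and 4 of these 6 held a kappaB motif: Cxcl10, Cxcl1, Csf1 and Il6. A kappaB motif stood in 4.51% of all 32841 promoters of the same length, searched on both strands. In Cxcl10 the kappaB motifs lay at -159 to -150 and -103 to -94 from the start, and the ISRE core, searched as TTTCNNTTTC on both strands and present in 3.44% of promoters, lay at -213 to -204 on the opposite strand. In Cxcl1 the overlapping matches GGGAATTTCC and GGAATTTCCC, on opposite strands, form a single site at -71 to -61. In Csf1 the motif was GGAAAGTCCC at -154 to -145, and in Il6 it was GGGATTTTCC at -44 to -35. The AP-1 motif, searched as TGACTCA or TGAGTCA and present in 5.20% of promoters, stood in Cxcl10, Il6 and Lif, and the GAS motif TTCNNNGAA, present in 8.30% of promoters, stood in none of the 6. These are matches of letters and are given as a description.

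The libraries held 3616416 to 4831641 reads assigned to genes. Levels are given as scaled CPM, the CPM (read count over library total) after trimmed-mean (TMM) scaling between libraries, and since the read type and counting by transcript length are not settled, levels are compared within a gene and not between genes. In bulk RNA fewer cells that make a transcript and less transcript per cell cannot be told apart. Unannotated loci took 14.04 to 15.15% of reads in 12Gy_48h, 11.88 to 11.99% in 12Gy_24h, 15.12 to 16.87% in 4Gy_48h and 19.83 to 21.67% in control. The median log2 fold change of known genes was 0.195 for 12Gy_48h, 0.233 for 12Gy_24h and 0.137 for 4Gy_48h against control, and near 0 when known genes alone were scaled and tested. Of the defining epithelial markers, Epcam and Cdh1 had 2 reads each over the 12 libraries and Cldn3, Cldn7 and Ocln had 0, while Krt18, Krt20 and Tjp1 were detected in every library, so several defining epithelial markers of the labelled tissue were at or near 0. The summed level of the 15 epithelial markers was 32.5 to 34.6 scaled CPM in 12Gy_48h, 36.1 to 40.5 in 12Gy_24h, 22.9 to 30.6 in 4Gy_48h and 18.8 to 23.1 in control, and its part in the results was not tested. Of the immune cell markers, Ptprc, Adgre1, Cd3e and Ly6c2 had 0 reads over the 12 libraries. Others on the list were detected: Cd68, Cd14, Lyz2 and Csf1r had 1019, 853, 323 and 93. The summed level of the 15 immune cell markers was 64.6 to 72.8 scaled CPM in 12Gy_48h, 43.3 to 60.4 in 12Gy_24h, 34.1 to 42.1 in 4Gy_48h and 39.8 to 48.0 in control; of the 4 tested, Cd68 rose at 12Gy_48h against control by 0.94 on the log2 scale (adjusted p = 0.00225 by edgeR), and its part in the results was not tested. The summed level of the 12 fibroblast markers was 1584 to 2122 scaled CPM in 12Gy_48h and 2779 to 3149 in 12Gy_24h. It was 1429 to 1892 in 4Gy_48h and 780 to 1276 in control, mostly Vim, and its part in the results was not tested. Col1a2, Sparc and Col1a1 had 11434, 8693 and 526 reads over the 12 libraries. Col3a1, Acta2 and Thy1 had 8, 2 and 1, and Lum and Postn had 0.

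Replicate 1 of 4Gy_48h and replicate 2 of control stood apart from the other libraries of their groups in Cxcl1. Cxcl1 was 17.5 times the mean of the other 4Gy_48h libraries in the first and 16.6 times the mean of the other control libraries in the second. Of 9805 known genes tested, 17 genes (0.173%) were at least 2-fold above their group's other libraries in both. Of the 6 members tested, Cxcl1 alone was among them. The libraries were picked by their Cxcl1 level, so its place among the 17 was fixed by that choice and nothing is read from it. The 17 also included Nfkbia and Nfkbiz, targets and regulators of NF-kB, and Csf2, Ier3 and Lcn2. The others were Bst1, Clec4d, Dact3, Gm49359, Gm9803, Mgarp, Oas1c, Prl2c3, Slc11a1, Tnfrsf9 and Zfp973. Of 28 tested genes of the NF-kB pathway and its feedback, only 2 were among the 17. Ccl5, Cxcl10, Csf1 and Lif were also highest of their group in both libraries, at 1.22 to 2.77 times the mean of the others. Il24 was not. These libraries therefore raise the control and 4Gy_48h means of those members too. Results that touch these libraries are given with and without them, the fit without both having been chosen after the data were seen.

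**Figure D1:**
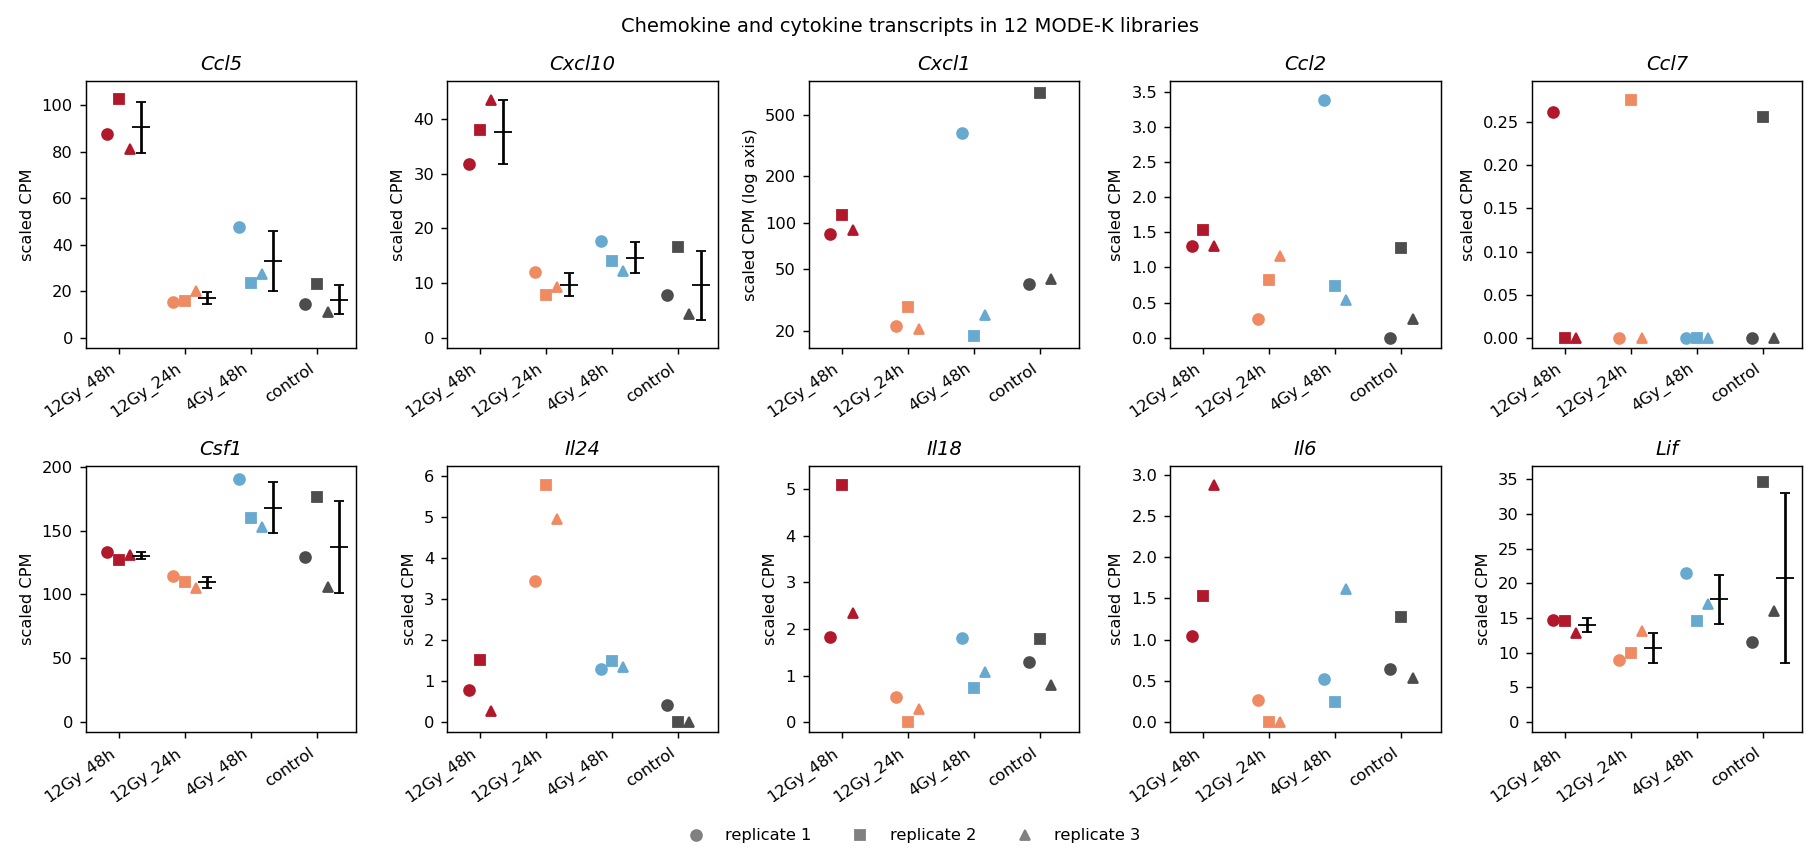
Scaled CPM of each member in each library (vertical axes, linear except the log axis of Cxcl1) for 12Gy_48h, 12Gy_24h, 4Gy_48h and control; symbols mark the replicate, and the horizontal tick with error bar in Ccl5, Cxcl10, Csf1 and Lif is the mean and SD of 3 libraries. Ccl5 and Cxcl10 are highest in all 3 libraries of 12Gy_48h, Il24 is highest in all 3 of 12Gy_24h, and Cxcl1 is highest in replicate 2 of control and replicate 1 of 4Gy_48h.

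Read depth let 6 of the 10 members through the filter on low counts: Ccl5, Cxcl10, Cxcl1, Csf1, Il24 and Lif. Il24 passed through 12Gy_24h alone, the group in which it was high, so its calls are given as a description and nothing is read from a count that includes them. Ccl2, Ccl7, Il18 and Il6 had 48, 3, 69 and 41 reads over all 12 libraries and are given as reads with counting intervals. A gene was called at a Benjamini-Hochberg adjusted p under 0.05 in edgeR's quasi-likelihood test over the 15086 genes tested.

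At 12Gy_48h against control, 2 of the 6 tested members rose (Ccl5 and Cxcl10) and 0 fell, where 12.9% of all genes tested were called higher and 20.2% lower. At 12Gy_24h against control, 1 was called higher (Il24, with the limit above) and 2 fell (Cxcl1 and Lif), where 18.5% were called higher and 29.4% lower. At 4Gy_48h against control, 2 were called higher (Ccl5 and Il24, the second with the limit above) and 0 fell, where 4.53% were called higher and 13% lower. At 12Gy_48h against 12Gy_24h, 2 were higher (Ccl5 and Cxcl10) and 1 lower (Il24, with the limit above), where 20.6% were called higher and 11.4% lower. At 12Gy_48h against 4Gy_48h, 2 were higher (Ccl5 and Cxcl10) and 0 lower, where 2.19% were called higher and 2.49% lower. All members are known genes, of which 18.25, 26.51, 6.21, 9.97 and 2.79% were called higher and 3.74, 3.99, 0.877, 15.64 and 1.55% lower in these 5 comparisons in the order given. The comparisons with control share its 3 libraries, so their counts are not independent. Without both outlying libraries, 3, 1, 2, 3 and 3 of the 6 tested members were called higher and 0, 1, 1, 1 and 0 lower. In that fit 16.75, 27.15, 2.69, 8.56 and 2.115% of known genes were called higher and 3.27, 2.49, 0.232, 17.58 and 1.04% lower. The change in members came from Cxcl1, Cxcl10, Il24 and Lif. The counts include Il24, with the limit above, and Cxcl1, in which those libraries stood apart, so nothing is read from them.

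**Figure D2:**
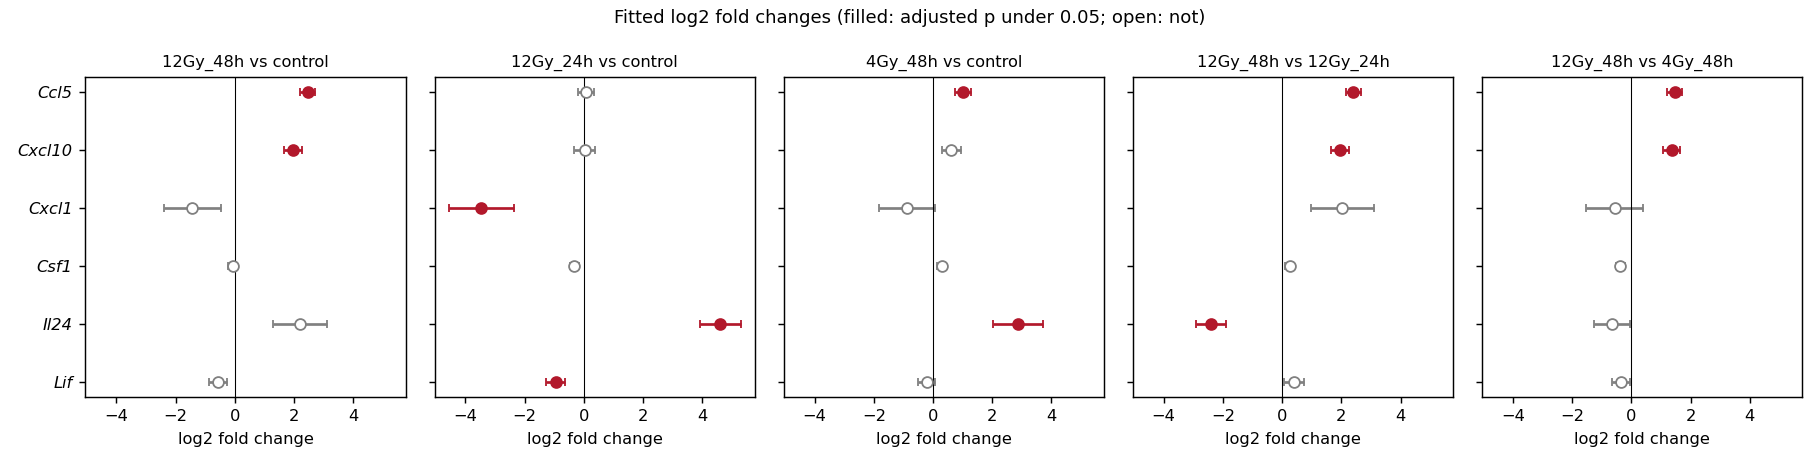
Fitted log2 fold change (horizontal axes) of the 6 members that passed the filter in each of the 5 comparisons, first-named group over second, with bars of 1 standard error; filled points passed an adjusted p of 0.05 and open points did not. Ccl5 and Cxcl10 are filled in the 3 panels with 12Gy_48h, Il24 lies at 4.61 at 12Gy_24h against control, and the bars of Cxcl1 are the widest in each panel.

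Ccl5 (ENSMUSG00000035042, chr11:83525778-83530518, minus strand, GRCm38) encodes RANTES, a chemokine of T cells and monocytes. It had 87.7, 103 and 81.3 scaled CPM in the 12Gy_48h libraries, 15.4, 16.0 and 20.1 in 12Gy_24h, 47.8, 23.4 and 27.5 in 4Gy_48h, and 14.6, 23.3 and 11.3 in control. The 12Gy_48h libraries lay above every other library, the 12Gy_24h libraries lay within the range of control, and the lowest 4Gy_48h library lay just above the highest control library. The mean was 90.5 ± 11.0 scaled CPM at 12Gy_48h and 16.4 ± 6.22 in control (SD, n = 3 each), a log2 fold change of 2.46 (SE 0.253, adjusted p = 5.08e-06 by edgeR). The rise held with each of the 6 libraries left out in turn, with log2 fold changes of 2.30 to 2.83. At 12Gy_24h, with a mean of 17.2 ± 2.58 scaled CPM, it was 0.07 against control (adjusted p = 0.870), and the sign turned to -0.17 when known genes alone were tested.

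At 4Gy_48h Ccl5 averaged 32.9 ± 13.03 scaled CPM, a rise of 1.00 on the log2 scale against control (SE 0.262, adjusted p = 0.0143 by edgeR). Replicate 1 of 4Gy_48h was the high library of that group. The call was lost without it (0.65, adjusted p = 0.0977), without control replicate 3 (0.84, adjusted p = 0.0629) and with known genes alone (0.86, adjusted p = 0.117). Between the doses at 48 h, 12Gy_48h stood 1.46 above 4Gy_48h (SE 0.237, adjusted p = 0.00446), and that call held with each library left out. Between the times after 12 Gy, 12Gy_48h stood 2.40 above 12Gy_24h (SE 0.255, adjusted p = 6.81e-06).

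Cxcl10 (ENSMUSG00000034855, chr5:92346638-92348889, minus strand) encodes IP-10, a ligand of Cxcr3, and is the member whose promoter above carries kappaB, ISRE and AP-1 motifs together. It had 31.7, 38.0 and 43.4 scaled CPM in 12Gy_48h, 11.9, 7.72 and 9.33 in 12Gy_24h, 17.7, 14.1 and 12.1 in 4Gy_48h, and 7.74, 16.7 and 4.29 in control. As for Ccl5, the 3 libraries of 12Gy_48h lay above all others, but control spread from 4.29 to 16.7 and overlapped both other irradiated groups. Means were 37.7 ± 5.87 scaled CPM at 12Gy_48h and 9.56 ± 6.38 in control (SD, n = 3 each), and the log2 fold change was 1.98 (SE 0.301, adjusted p = 0.000138 by edgeR). Without control replicate 2, the highest of the control libraries, it was 2.65. Its gene overlaps Art3 on the other strand, which had 1 read over all libraries.

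At 12Gy_24h Cxcl10 averaged 9.66 ± 2.13 scaled CPM and was 0.02 against control (adjusted p = 0.966), with the sign turning to -0.21 when known genes alone were tested. At 4Gy_48h it averaged 14.6 ± 2.80 and was 0.62 against control (adjusted p = 0.212). Without control replicate 2 that difference was 1.29 (adjusted p = 0.00769), and without both libraries that stood apart it was 1.13 (adjusted p = 0.0354). At matched time, 12Gy_48h was 1.36 above 4Gy_48h (SE 0.287, adjusted p = 0.0155). The direction held with each library left out, but the adjusted p was 0.0742 without replicate 2 of 12Gy_48h, 0.0529 without its replicate 3 and 0.0692 without replicate 3 of 4Gy_48h. Between the times after 12 Gy it was 1.96 higher at 12Gy_48h than at 12Gy_24h (SE 0.305, adjusted p = 0.000194).

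Cxcl1 (ENSMUSG00000029380, chr5:90891241-90893115, plus strand) encodes KC, a ligand of Cxcr2, and its promoter above carries a single kappaB site. It had 326, 444 and 344 reads in the 12Gy_48h libraries, 81, 103 and 70 in 12Gy_24h, 1474, 75 and 94 in 4Gy_48h, and 187, 2710 and 162 in control. In scaled CPM these were 85.3, 113 and 89.9 in 12Gy_48h, 21.5, 28.4 and 20.4 in 12Gy_24h, 383, 18.5 and 25.4 in 4Gy_48h, and 40.2, 694 and 43.4 in control. The libraries of 12Gy_48h and of 12Gy_24h were close to each other within each group, whereas 4Gy_48h and control each held a library far above the rest. Setting those aside, the order was 12Gy_48h highest, then control, then 12Gy_24h and 4Gy_48h, which overlapped.

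Its fitted differences depended on which libraries were in the fit. With all libraries, Cxcl1 was -1.43 at 12Gy_48h against control (SE 0.964, adjusted p = 0.271 by edgeR), fell by 3.46 at 12Gy_24h (SE 1.09, adjusted p = 0.0145) and was -0.86 at 4Gy_48h (SE 0.945, adjusted p = 0.584). Without control replicate 2 these became 1.24 (adjusted p = 0.292), -0.75 (adjusted p = 0.516) and 1.81 (adjusted p = 0.180). Without 4Gy_48h replicate 1, the 4Gy_48h difference was -3.55 (adjusted p = 0.0274). Without both, Cxcl1 was 1.24 at 12Gy_48h (adjusted p = 0.000303), -0.76 at 12Gy_24h (adjusted p = 0.00511) and -0.90 at 4Gy_48h (adjusted p = 0.0235) against control. Both libraries were left out for their Cxcl1 level, so these p-values are not independent of that choice.

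**Figure D3:**
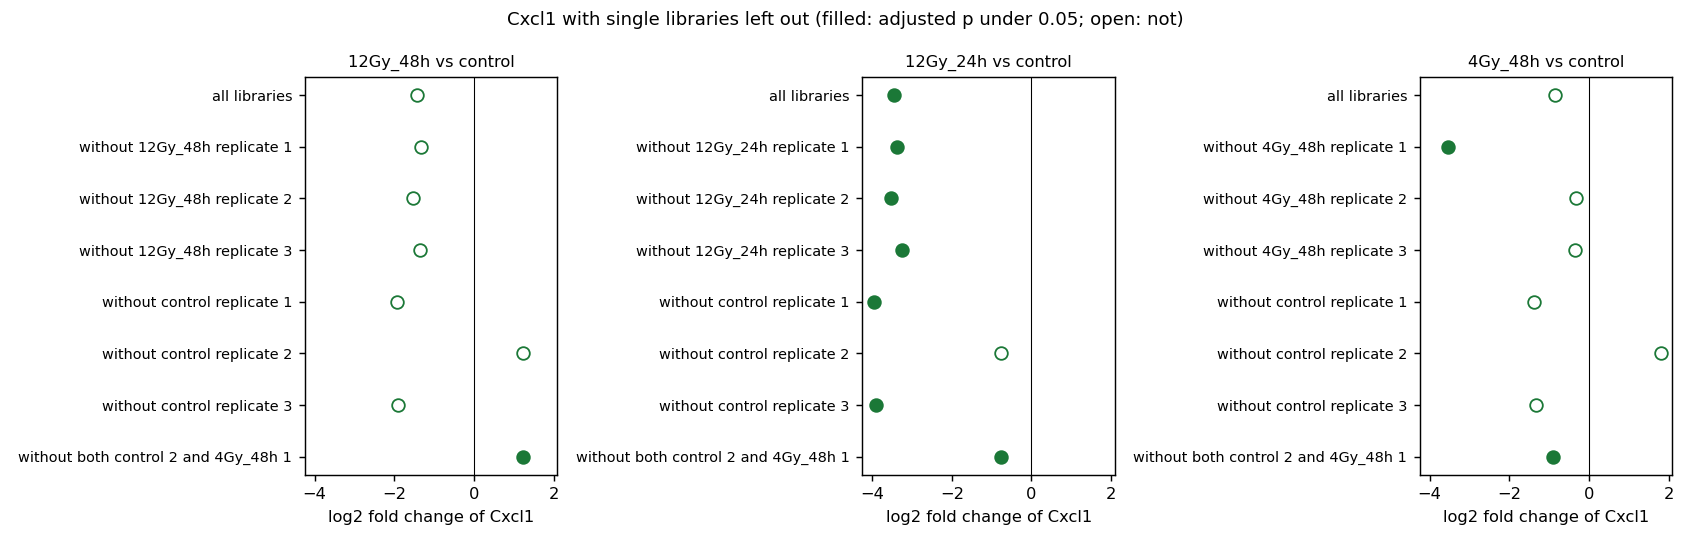
Log2 fold change of Cxcl1 (horizontal axes) at 12Gy_48h, 12Gy_24h and 4Gy_48h against control, with all libraries and with those named on the vertical axes left out; filled points passed an adjusted p of 0.05 in edgeR and open points did not. At 12Gy_48h the value was -1.43 with all libraries and 1.24 without control replicate 2.

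Between the times after 12 Gy neither of these libraries enters the difference, and the 3 libraries of 12Gy_48h lay above the 3 of 12Gy_24h, with means of 96.1 ± 14.9 and 23.4 ± 4.32 scaled CPM (SD, n = 3 each). The log2 fold change was 2.03, but the spread shared over all groups was wide (SE 1.07, adjusted p = 0.159). In the fit without both libraries it was 1.99 (adjusted p = 3.13e-06 by edgeR). Leaving them out for their Cxcl1 level narrows the shared spread of Cxcl1, so this p is not independent of that choice. The authors' deposited table gives 1.86 (adjusted p = 1.11e-22 by DESeq2) for this comparison. The settings of that fit and the libraries that shared its spread are not given, so its p is not weighed against those above. At matched time, 12Gy_48h against 4Gy_48h was -0.56 with all libraries (adjusted p = 0.783 by edgeR). It was 2.13 without both (adjusted p = 0.000154 by edgeR), a p with the same limit.

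**Figure D4:**
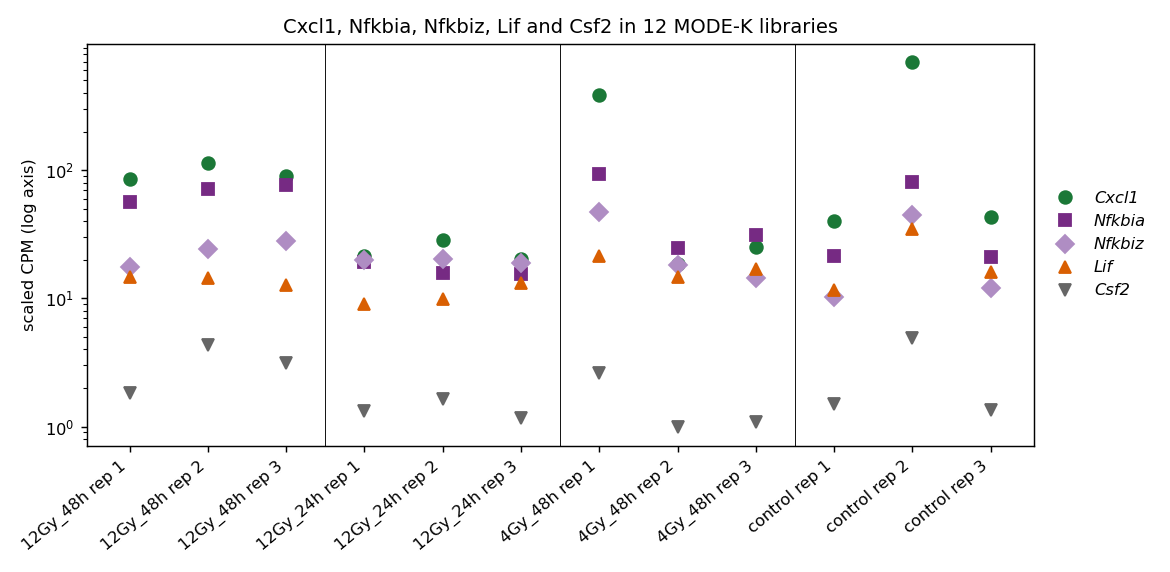
Scaled CPM (vertical log axis) of Cxcl1, Nfkbia, Nfkbiz, Lif and Csf2 in each of the 12 libraries (horizontal axis, 3 per group, groups divided by lines). All 5 genes are highest of their group in replicate 2 of control and in replicate 1 of 4Gy_48h, where Nfkbia reached 81.2 and 94.0 scaled CPM. The members Ccl5, Cxcl10 and Csf1, not drawn here, are also highest of their group in both.

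Nfkbia, which encodes the inhibitor of NF-kB and is itself a target of it, was among the 3 known genes whose level followed that of Cxcl1 most closely over the 12 libraries (Pearson r = 0.863 on the log2 scale, a description over libraries that share groups and the same outlying pair). It had 56.8, 71.3 and 76.6 scaled CPM in 12Gy_48h, 19.4, 15.7 and 15.5 in 12Gy_24h, 94.0, 24.7 and 31.0 in 4Gy_48h, and 21.3, 81.2 and 20.9 in control. Like Cxcl1 it was high in all 12Gy_48h libraries and in the 2 libraries that stood apart. Wdyhv1 (r = 0.864) and Csf2, the gene of GM-CSF (r = 0.860), were the others. Csf2 had 10 reads in replicate 1 of 4Gy_48h, against 4 in each of the other libraries of that group, and 19 in replicate 2 of control, against 5 and 7.

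The genes closest to Ccl5 by the same measure were Ccl4 (r = 0.973), Cyhr1 (r = 0.963) and Adamts1 (r = 0.958), and those closest to Cxcl10 were Fgfr1 (r = 0.948), Pnrc1 (r = 0.946) and Rnf145 (r = 0.945). Ccl5 and Cxcl10 followed each other with r = 0.944. Ccl4, the gene of the CC chemokine MIP-1 beta, averaged 46.5 ± 4.66 scaled CPM at 12Gy_48h, 7.96 ± 0.435 at 12Gy_24h, 12.0 ± 2.84 at 4Gy_48h and 8.20 ± 2.21 in control (SD, n = 3 each). It rose by 2.51 at 12Gy_48h against control (adjusted p = 9.62e-07 by edgeR), and the call held with each library left out. Over the other 31 chemokine genes considered, 2 passed the filter, Ccl4 and Ccl25, so most of the family was at or near 0 in these cells: Ccl3, Cxcl9 and Cxcl16 had 0 reads and Cxcl2 had 22 over 12 libraries. Ccl20 had 31 reads in all, of which 16 were in replicate 2 of control and 7 in replicate 1 of 4Gy_48h.

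Csf1 (ENSMUSG00000014599, chr3:107741048-107760469, minus strand) encodes the macrophage growth factor M-CSF and kept between 105 and 191 scaled CPM in every library. It had 133, 127 and 131 scaled CPM in 12Gy_48h, 114, 109 and 105 in 12Gy_24h, 191, 160 and 153 in 4Gy_48h, and 129, 176 and 106 in control. The 4Gy_48h libraries lay above those of 12Gy_48h, which in turn lay above those of 12Gy_24h, and control spanned most of this range. Against control it was -0.07 at 12Gy_48h (SE 0.150, adjusted p = 0.738), -0.33 at 12Gy_24h (SE 0.151, adjusted p = 0.0870) and 0.29 at 4Gy_48h (SE 0.149, adjusted p = 0.196), by edgeR. The 12Gy_24h difference passed without control replicate 3 (-0.40, adjusted p = 0.0333) and with known genes alone (-0.56, adjusted p = 0.0149), and the 4Gy_48h difference passed without control replicate 2 (0.55, adjusted p = 0.0115). Between the irradiated groups, 12Gy_48h was 0.25 against 12Gy_24h (adjusted p = 0.218) and -0.37 against 4Gy_48h (adjusted p = 0.167). Its closest genes were Irak1 (r = 0.854), Kif4 (r = 0.826) and Anapc15 (r = 0.822). Csf1r, the receptor of Csf1, had 93 reads over the 12 libraries.

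Lif (ENSMUSG00000034394, chr11:4257557-4272514, plus strand), the leukemia inhibitory factor gene, had 14.6, 14.5 and 12.8 scaled CPM in 12Gy_48h, 9.02, 9.92 and 13.1 in 12Gy_24h, 21.6, 14.6 and 16.99 in 4Gy_48h, and 11.6, 34.6 and 16.1 in control. Control replicate 2 was 2.498 times the mean of the other control libraries, the 12Gy_24h libraries lay below those of 4Gy_48h, and every other pair of groups overlapped. Lif fell by 0.95 at 12Gy_24h against control (SE 0.317, adjusted p = 0.0206 by edgeR). The call was lost without control replicate 2 (-0.29, adjusted p = 0.343), without replicate 1 of 12Gy_24h (-0.82, adjusted p = 0.0791) and without its replicate 2 (-0.79, adjusted p = 0.0924). At 12Gy_48h it was -0.56 against control (adjusted p = 0.172), which passed without control replicate 1 (-0.85, adjusted p = 0.0259) and was 0.06 without control replicate 2. At 4Gy_48h it was -0.22 against control (adjusted p = 0.666), and 0.40 without control replicate 2. Its closest genes were Cbwd1 (r = 0.881), Nek4 (r = 0.871) and Lcn2 (r = 0.810), the last of which had 259 scaled CPM in control replicate 2 and 21.5 and 52.0 in the other control libraries.

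Il24 (ENSMUSG00000026420, chr1:130882074-130887454, minus strand), whose product signals through Il20rb paired with Il20ra or Il22ra1, was sparse. It had 3, 6 and 1 reads in the 12Gy_48h libraries, 13, 21 and 17 in 12Gy_24h, 5, 6 and 5 in 4Gy_48h, and 2, 0 and 0 in control. The 12Gy_24h libraries lay above all others, and the 4Gy_48h libraries lay above control. In scaled CPM the means were 4.73 ± 1.18 at 12Gy_24h and 0.143 ± 0.248 in control (SD, n = 3 each). The ratio of summed reads at 12Gy_24h over control, adjusted for library size, was 28.95 with an exact 95% counting interval of 7.62 to 246. Both control reads were in control replicate 1. The fitted difference was 4.61 (SE 0.676), which depends on the prior count and is no bound, and it was 7.18 without control replicate 1, where control held 0 reads. Its adjusted p by edgeR was 3.05e-05, and 5.16e-09 to 0.000405 over the alternative settings, the lowest with no filter on low counts; since the filter let Il24 in through 12Gy_24h, these describe the libraries and support nothing further.

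At 4Gy_48h the ratio of Il24 reads to control was 8.47 (95% interval 1.99 to 75.9), from 16 and 2 reads, and the fitted difference of 2.86 passed (SE 0.839, adjusted p = 0.0266 by edgeR). That call was lost without replicate 1 or 2 of 4Gy_48h (adjusted p = 0.0580 and 0.0756), without control replicate 2 or 3 (adjusted p = 0.0807 and 0.0830), with known genes alone (adjusted p = 0.126), in DESeq2 (adjusted p = 0.0761) and without both outlying libraries (2.46, adjusted p = 0.134). Without control replicate 1 it was 5.42 (adjusted p = 0.0113), with 0 reads left in control, and with no filter on low counts it was 2.92 (adjusted p = 0.00998). The authors' own comparison of 4Gy_48h with control gives 1.00 for Il24 (adjusted p = 0.114 by DESeq2), from a fit whose settings are not given. At 12Gy_48h the ratio to control was 5.31 (95% interval 1.13 to 49.8), and the fitted 2.20 did not pass (adjusted p = 0.0755). It passed without replicate 3 of 12Gy_48h (2.63, adjusted p = 0.0415) and without control replicate 1 (4.76, adjusted p = 0.0225). Between the times after 12 Gy, the fitted difference of Il24 at 12Gy_48h over 12Gy_24h was -2.41 (SE 0.507, adjusted p = 0.00202 by edgeR, and 7.87e-05 to 0.0123 over the alternative settings), with the same limit, where Ccl5 and Cxcl10 had positive values. Of the receptor subunits, Il20ra and Il22ra1 had 0 reads and Il20rb 25 over 12 libraries. The genes closest to Il24 were Grhpr (r = 0.954), Abcb6 (r = 0.948) and Pdss2 (r = 0.944).

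**Figure D5:**
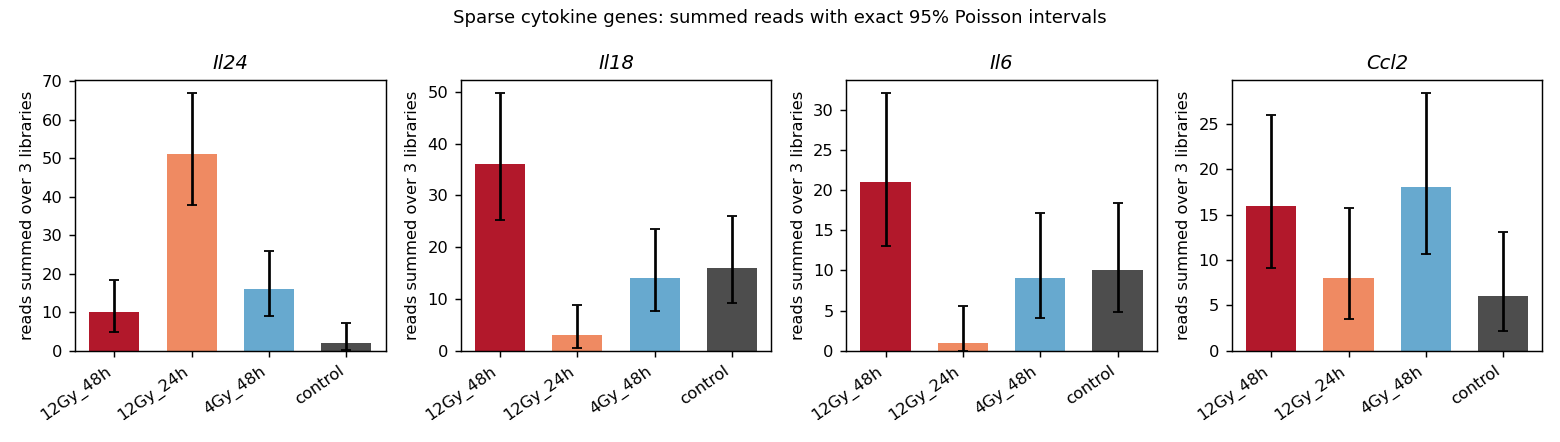
Reads of Il24, Il18, Il6 and Ccl2 summed over the 3 libraries of each group (bars, vertical axes from 0) with exact 95% Poisson intervals, which cover counting error only. Il24 peaks at 51 reads in 12Gy_24h, while Il18 and Il6 have 3 and 1 reads there and 36 and 21 in 12Gy_48h.

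Il18 (ENSMUSG00000039217, chr9:50554827-50581840, plus strand) had 7, 20 and 9 reads in 12Gy_48h, 2, 0 and 1 in 12Gy_24h, 7, 3 and 4 in 4Gy_48h, and 6, 7 and 3 in control. Every 12Gy_48h library was above every 12Gy_24h library, and 12Gy_48h met the top of 4Gy_48h and control at 7 reads. The ratio of 12Gy_48h to 12Gy_24h was 11.2 (95% counting interval 3.55 to 57.0), that of 12Gy_48h to 4Gy_48h was 2.58 (1.36 to 5.18), and those to control were 2.39 (1.29 to 4.61) at 12Gy_48h, 0.213 (0.0398 to 0.744) at 12Gy_24h and 0.926 (0.419 to 2.03) at 4Gy_48h. When no filter was set on low counts, Il18 was 3.27 higher at 12Gy_48h than at 12Gy_24h (adjusted p = 0.000184 by edgeR), rose by 1.30 at 12Gy_48h against control (adjusted p = 0.0494) and fell by 1.96 at 12Gy_24h (adjusted p = 0.0451). These intervals and those of the other sparse genes cover counting error only. The overlapping genes Bco2 and Tex12, on the other strand, had 1 and 0 reads.

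Il6 (ENSMUSG00000025746, chr5:30013114-30019981, plus strand) had 4, 6 and 11 reads in 12Gy_48h, 1, 0 and 0 in 12Gy_24h, 2, 1 and 6 in 4Gy_48h, and 3, 5 and 2 in control. As for Il18, the 12Gy_48h and 12Gy_24h libraries did not overlap, and 4Gy_48h overlapped control. The ratio of 12Gy_48h to 12Gy_24h was 19.6, from 21 and 1 reads, with a counting interval of 3.16 to 812. Against control the ratio was 2.23 (1.01 to 5.30) at 12Gy_48h, 0.114 (0.00262 to 0.798) at 12Gy_24h and 0.953 (0.343 to 2.61) at 4Gy_48h. Without a filter, Il6 was 3.83 higher at 12Gy_48h than at 12Gy_24h (adjusted p = 0.00244 by edgeR) and was not called in the other 4 comparisons.

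Ccl2 (ENSMUSG00000035385, chr11:82035571-82037453, plus strand), the gene of MCP-1, had 5, 6 and 5 reads in 12Gy_48h, 1, 3 and 4 in 12Gy_24h, 13, 3 and 2 in 4Gy_48h, and 0, 5 and 1 in control. The highest counts of 4Gy_48h and control were again in replicate 1 and replicate 2, the libraries that stood apart in Cxcl1. The ratio to control was 2.83 (95% counting interval 1.05 to 8.84) at 12Gy_48h, 1.51 (0.461 to 5.29) at 12Gy_24h and 3.18 (1.21 to 9.77) at 4Gy_48h, the last resting on 13 of 18 reads from replicate 1. Without a filter Ccl2 was not called in any of the 5 comparisons. Ccl7 (ENSMUSG00000035373, chr11:82045712-82047525, plus strand), its neighbour on the same strand 8258 bases downstream, had 1 read in replicate 1 of 12Gy_48h, 1 in replicate 2 of 12Gy_24h, 1 in replicate 2 of control and 0 elsewhere, under the limit of 3 reads at which a fold was given. Reads of Ccl2 and Ccl7, and of Cxcl1 and its CXC relatives, could be split between similar copies depending on the authors' counting, which is not given in the sources used here.

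Receptors and binding proteins of the members were mostly at or near 0: of 22, 7 passed the filter, and Cxcr3, Ccr3, Ackr1 and Lifr had 0 reads. Among those tested, 3 rose and 0 fell at 12Gy_48h against control (median log2 fold change 0.582), 3 rose and 0 fell at 12Gy_24h (median 0.476), and 0 changed at 4Gy_48h (median 0.426), where 18.25, 26.51 and 6.21% of known genes were called higher and 3.74, 3.99 and 0.877% lower. These counts include Ccr1, which passed the filter through 12Gy_24h alone. With known genes alone these counts were 0, 3 and 0 higher, where 664, 898 and 74 of 9816 known genes were called higher. Without both outlying libraries they were 1, 3 and 0 higher, where 16.75, 27.15 and 2.69% of known genes were. Ccr1, a receptor of Ccl5 and Ccl7, had 77 reads over the 12 libraries and averaged 1.30 ± 0.263 scaled CPM at 12Gy_48h, 4.63 ± 0.628 at 12Gy_24h, 0.764 ± 0.407 at 4Gy_48h and 0.250 ± 0.270 in control (SD, n = 3 each), given as a description. Il18rap, the accessory subunit of the Il18 receptor, averaged 30.7 ± 0.321 at 12Gy_24h and 10.3 ± 1.31 in control, a rise of 1.56 (adjusted p = 3.54e-06 by edgeR), while Il18r1 had 2 reads in all. Il6st was 1.14 higher at 12Gy_48h than at 12Gy_24h (adjusted p = 0.00176).

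Of 28 tested genes of the NF-kB pathway and its feedback, 5 rose and 0 fell at 12Gy_48h against control, 2 rose and 2 fell at 12Gy_24h, and 0 changed at 4Gy_48h; at 12Gy_48h against 12Gy_24h, 10 were higher and 0 lower. Of known genes 18.25, 26.51, 6.21 and 9.97% were called higher and 3.74, 3.99, 0.877 and 15.64% lower in these 4 comparisons, so the 5 at 12Gy_48h were near the background share. The median log2 fold change of these 28 was 0.282 at 12Gy_48h against control, where that of all known genes was 0.195, and 0.415 at 12Gy_48h against 12Gy_24h, where it was -0.058. Nfkbia was 2.01 higher at 12Gy_48h than at 12Gy_24h (adjusted p = 0.00668 by edgeR), Rela, which encodes the p65 subunit, was 0.70 higher (adjusted p = 0.00242), and Traf1 was 2.34 higher (adjusted p = 0.00239). With known genes alone, 2 of the 28 rose and 0 fell at 12Gy_48h against control, and 1 rose and 4 fell at 12Gy_24h. In that fit 664 and 898 of 9816 known genes were called higher and 789 and 776 lower. The 2 at 12Gy_48h were thus near the background share. Without both outlying libraries, 11 rose and 0 fell at 12Gy_48h against control, where 16.75% of known genes were called higher. At 12Gy_24h, 4 rose and 0 fell, where 27.15% were. Control replicate 2 stood at 3.85 times the mean of the other control libraries in Nfkbia, 3.98 in Nfkbiz and 0.0758 in Map3k14. Leaving it out moves the control mean of genes on this list, so nothing is read from the change in these counts. Nfkbiz had 44.6 scaled CPM in control replicate 2, and 10.3 and 12.1 in the other control libraries.

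Of 11 tested genes of the response to IL-6 family cytokines, 5 rose and 0 fell at 12Gy_48h against control, 2 rose and 1 fell at 12Gy_24h, and 2 rose and 0 fell at 4Gy_48h, with medians of 0.460, 0.056 and 0.355, where 18.25, 26.51 and 6.21% of known genes were called higher and 3.74, 3.99 and 0.877% lower. With known genes alone these were 4 higher and 1 lower, 0 and 2, and 0 and 0. In that fit 664, 898 and 74 of 9816 known genes were called higher and 789, 776 and 56 lower. Without both outlying libraries the counts were 5 and 0, 2 and 1, and 0 and 0. There 16.75, 27.15 and 2.69% of known genes were called higher and 3.27, 2.49 and 0.232% lower. Socs3, a feedback inhibitor of gp130 signalling, averaged 19.5 ± 2.88 scaled CPM at 12Gy_48h and 9.62 ± 4.35 in control (SD, n = 3 each), a rise of 0.99 (adjusted p = 0.00589 by edgeR). Fos, an AP-1 subunit, rose by 1.59 at 12Gy_48h against control (adjusted p = 0.00179) and was 3.004 higher at 12Gy_48h than at 12Gy_24h (adjusted p = 3.80e-05). Of 10 tested genes of cytokine mRNA decay, 3 rose and 0 fell at 12Gy_48h against control, 2 rose and 0 fell at 12Gy_24h, and 2 rose and 0 fell at 4Gy_48h, with medians of 0.416, 0.107 and 0.171 beside the same shares of known genes. Zfp36, which encodes tristetraprolin, a protein that binds AU-rich elements of cytokine mRNAs and hastens their decay, averaged 42.4 ± 4.29 scaled CPM at 12Gy_48h and 17.5 ± 1.19 in control, a rise of 1.27 (adjusted p = 0.000117). With known genes alone 1, 1 and 0 of these 10 rose and 0 fell, and without both outlying libraries 3, 1 and 0 rose and 0 fell. The counts and shares of known genes in these fits are those given above in this paragraph.

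Of 11 other tested cytokine genes, 2 rose and 0 fell at 12Gy_48h against control, 4 rose and 0 fell at 12Gy_24h, and 2 rose and 2 fell at 4Gy_48h, with medians of 0.185, 0.392 and 0.072. Of known genes 18.25, 26.51 and 6.21% were called higher and 3.74, 3.99 and 0.877% lower, so the 2 higher at 12Gy_48h were near the background share. With known genes alone these were 1 higher and 1 lower, 4 and 1, and 1 and 1. Without both outlying libraries they were 2 and 0, 4 and 0, and 1 and 0. The counts and shares of known genes in these fits are those given in the paragraph above. Il15, a growth factor of intraepithelial lymphocytes and natural killer cells, averaged 8.56 ± 0.297 scaled CPM at 12Gy_48h, 2.29 ± 0.590 at 12Gy_24h, 7.15 ± 1.47 at 4Gy_48h and 2.58 ± 0.881 in control (SD, n = 3 each). It rose by 1.71 at 12Gy_48h (adjusted p = 0.000318 by edgeR) and by 1.45 at 4Gy_48h (adjusted p = 0.00282) against control. Il15 had only 6 to 34 reads per library. Whether it would pass the filter on low counts without the 48 h groups was not tested, so these calls are given as a description. The counts of this list include Il15. Il34, the other ligand of Csf1r, averaged 44.8 ± 2.74 scaled CPM at 12Gy_24h and 16.1 ± 4.47 in control, a rise of 1.47 (adjusted p = 7.58e-06), and its fitted difference at 12Gy_48h over 12Gy_24h was -1.38 (adjusted p = 6.03e-05).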

How the data were processed

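RNA from 12 MODE-K libraries was sequenced in 4 groups of 3, with groups and replicate numbers from the labels. Per the submitters' processing notes the tools included cutadapt 1.9 and FastQC; no source used here gives the aligner, genome build, strandedness or read platform. Per the file headers, the deposited table lists unnormalized read counts for each gene, and CPM, which the authors computed as count over column total (recomputed values differed by at most 4.78e-06). It also holds other values, the log2 fold changes and adjusted p of the authors' own comparisons, per the file headers. Of 33636 lines, 11 were overflow of a long cell, leaving 33625 genes. Symbols were restored by Ensembl identifier (22022 matched), and positions come from GENCODE on GRCm38.

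The quasi-likelihood test of edgeR 4.0.16, run under R 4.3.3, was applied to the counts (filterByExpr, TMM, 1 mean per group over 12 libraries, 5 two-sided comparisons, Benjamini-Hochberg over 15086 genes). Standard errors are the fold change over the square root of F. Sparse genes have exact Poisson intervals for reads and exact conditional binomial intervals for ratios at 95%, with a floor of 3 reads. Likeness is Pearson's r of log2(scaled CPM + 0.5) over 12 libraries. The procedure was tested on simulated data. Alternatives were no filter, RLE scaling, DESeq2 1.42.0, known genes alone, a replicate block, each library left out, and both outlying libraries left out. Named genes were all members, up to 4 called genes per list and comparison by adjusted p, and the 3 genes most like each member; genes named for reads near 0 or for the outlying libraries were chosen after their values were seen. The members and gene lists were chosen with earlier results of these data known.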

Additional observations from a re-analysis of the deposited data

Results flagged for a closer look

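The difference between irradiated groups was itself tested in 5 cases that passed. Ccl5 was 2.40 higher on the log2 scale at 12Gy_48h than at 12Gy_24h (adjusted p = 6.81e-06 by edgeR), with 2.46 and 0.07 against control. Cxcl10 was 1.96 higher at 12Gy_48h than at 12Gy_24h (adjusted p = 0.000194), with 1.98 and 0.02 against control. Il24 went the other way, -2.41 at 12Gy_48h against 12Gy_24h (adjusted p = 0.00202), with 2.20 and 4.61 against control; it passed the filter on low counts through 12Gy_24h alone, so this p is given as a description. At matched time, Ccl5 was 1.46 higher at 12Gy_48h than at 4Gy_48h (adjusted p = 0.00446), with 2.46 and 1.00 against control, and Cxcl10 was 1.36 higher (adjusted p = 0.0155), with 1.98 and 0.62 against control. With single libraries left out, this Cxcl10 call held in 3 of 6 fits and that of Ccl5 in 6 of 6.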

How the results depend on the processing

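Over the members' values and alternatives, 304 kept their direction and side of the threshold, 14 gained a call with the same sign, 18 lost one and 18 changed sign. Each value was counted once. Those that changed sign include Cxcl1 without both outlying libraries at 12Gy_48h against control and against 4Gy_48h, which also gained a call. Members called at 12Gy_48h against control were 2 of 6 tested, and 4 of 10 with no filter, where 4995 of 15086 and 5872 of 26299 genes were called. At 12Gy_48h against 12Gy_24h they were 3 of 6 and 6 of 10, where 4825 and 5520 genes were called. At 4Gy_48h against control they were 2 of 6, 1 of 6 by DESeq2 and 0 of 6 with known genes alone. There 2649 of 15086, 1824 of 16095 and 130 of 9816 genes were called. Counts that include Il24 keep its limit. With single libraries left out, members called ranged from 2 to 4 at 12Gy_48h, 1 to 4 at 12Gy_24h and 0 to 3 at 4Gy_48h against control. They ranged from 1 to 2 at 12Gy_48h against 4Gy_48h. Genes called in these 4 comparisons ranged from 3968 to 4872, 7081 to 7860, 1524 to 2980 and 77 to 431, of 15499 to 15860 tested. DESeq2 gave no adjusted p for Cxcl1 in any comparison.

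Testing known genes alone gave 1453 genes called at 12Gy_48h against control (4995 over all genes), 1674 (7238) at 12Gy_24h, 130 (2649) at 4Gy_48h and 2330 (4825) between the times. Of these, 664, 898, 74 and 1090 were higher and 789, 776, 56 and 1240 lower, where over all genes 1945, 2798, 684 and 3102 were higher and 3050, 4440, 1965 and 1723 lower. The counts over all genes also take in genes outside the known set. Among the 9809 known genes of that fit, 1790, 2600, 609 and 978 were higher and 367, 391, 86 and 1534 lower. At 12Gy_48h against 4Gy_48h, 707 were called, and 1113 with no filter. With single libraries left out, genes called ranged from 1524 to 2980 at 4Gy_48h against control and from 77 to 431 at 12Gy_48h against 4Gy_48h.

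Changes of sign were these. At 12Gy_48h against control, Cxcl1 ranged from -1.93 to 1.24, Csf1 from -0.193 to 0.184 and Lif from -0.849 to 0.062 with single libraries left out, the upper ends being without control replicate 2, and without both outlying libraries they were 1.24, 0.184 and 0.062. At 12Gy_24h against control, Ccl5 was -0.172 and Cxcl10 -0.214 with known genes alone, and they ranged from -0.058 to 0.473 and from -0.232 to 0.736 with single libraries left out. At 4Gy_48h against control, Cxcl1 ranged from -3.55 to 1.81 and Lif from -0.512 to 0.402, Lif being 0.232 without both. At 12Gy_48h against 4Gy_48h, Cxcl1 ranged from -1.08 to 2.14 and was 2.13 without both. The alternatives that drop a library take it out of a group of 3; no other cause was tested.

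Replicate numbers did not pair the libraries: deviations of same-numbered libraries correlated at -0.111 to 0.125. With the replicate block, members called were 2, 3, 2, 3 and 2 in the 5 comparisons, as without it, and genes called were 4713, 7096, 2384, 4556 and 514. Depth limits Ccl2, Ccl7, Il18, Il6 and Il24, where a few reads set the value.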
